A study of Mus musculus with 8 samples.

Results

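Endothelial cells line the blood vessels of the brain, and in this organ they form the blood-brain barrier. The genes described here are 41 mouse genes of that lineage, chosen by name as pan-endothelial surface genes, angiogenic receptors and signalling genes, transcription factors, junction proteins and barrier transporters. All 41 were found, among 34299 genes in the deposited count table, by an exact match of the gene name. They were read in 8 RNA-seq libraries of polyadenylated RNA from whole mouse brain.

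The libraries fall into 3 groups. There were 3 wild-type (WT) libraries and 3 libraries from Cav1 knockout (KO) mice, which lack caveolin 1, the coat protein of caveolae, all from fetal brain at gestation day 15. A further 2 KO libraries came from aging brain at week 70, and wild-type brain of that age was not analysed here. The strain, the design of the knockout allele, the sex and the litter are not given in the sources used here, and caveolin 1 is itself abundant in endothelial cells, so that the knockout removes a protein of the cells described. The labels call the fetal samples biological replicates. They do not say this of the week 70 samples, so that p-values there measure only the spread between these libraries. Total counts were 19414747 to 20833397 in WT day 15, 14110031 to 15245283 in the fetal KO libraries, and 18924304 and 20203233 in the week 70 libraries. Values per gene are normalised CPM, that is counts scaled for library size by the trimmed mean of M values (TMM) over the 8 libraries. Cav1 counts were 367, 218 and 329 for the WT libraries. The KO libraries held 0, 3 and 1 at day 15 and then 1 and 5 at week 70, so that no library went against its genotype label.

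Some libraries stood apart. Counts of Xist and of 4 Y-linked genes put week 70 replicate 2 (4 and 2219 counts) apart from week 70 replicate 1 (7969 and 0 counts) and from the fetal libraries (54531 to 93272 and at most 4 counts), and sex can therefore not be told apart from replicate at week 70. WT day 15 replicate 1 held 4439 CPM of 6 fibroblast and meningeal genes, against 306 and 517 CPM in the other WT libraries. Week 70 replicate 2 held 2379 CPM of 5 choroid plexus genes and replicate 1 held 71.9 CPM. Mitochondrially encoded genes took 1.27 to 1.35% of counts in WT day 15, 3.30 to 3.87% in KO day 15 and 5.43 and 4.41% at week 70. These shares did not overlap between any of the groups, so they move with both comparisons, and their part in the results was not tested. No fetal library showed the pattern of Xist and Y-linked counts of week 70 replicate 2, so sex also differs in part between the ages. Depth did not overlap between the fetal groups, nor between KO day 15 and KO week 70, and the labels record no batch. Genotype and batch therefore cannot be told apart, and neither can age and batch.

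Brain vessels grow into the neural tube under the control of vascular endothelial growth factor (VEGF), which acts through the receptors Kdr and Flt1, and of angiopoietins, which act through Tek with its partner Tie1. Wnt ligands from neural progenitors act on the same cells through Frizzled receptors and the co-activators Reck and Adgra2, and switch on the barrier program. That program consists of tight junctions (Cldn5, Ocln, Tjp1), low vesicular transport (Mfsd2a on, Plvap off) and a set of efflux pumps and nutrient carriers. The endothelial identity itself rests on transcription factors of the ETS family (Erg, Fli1, Ets1) and the SOXF group (Sox7, Sox17, Sox18).

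Promoter sequences are shown for genes on which the results turn, with matches to the core letters of the ETS, SOX and TCF/LEF motifs. The sequences come from RefSeq on GRCm38.p6, whose table held an entry for 24 of the 41 genes. Tjp1 shares with Slc7a5 the smallest adjusted p of the members between the genotypes, Cldn5 is the main claudin of the barrier, and Kdr and Flt1, chosen after their values were seen, are the VEGF receptors whose ratio is described further on. Slc7a5 and Cdh5 had no entry. Each sequence is the 250 bases before the annotated start, 5′ to 3′ on the strand of the gene, and capitals mark GGAAG, the ETS core, or its reverse complement CTTCC.
Tjp1 (chr7:65371245-65371494, minus strand): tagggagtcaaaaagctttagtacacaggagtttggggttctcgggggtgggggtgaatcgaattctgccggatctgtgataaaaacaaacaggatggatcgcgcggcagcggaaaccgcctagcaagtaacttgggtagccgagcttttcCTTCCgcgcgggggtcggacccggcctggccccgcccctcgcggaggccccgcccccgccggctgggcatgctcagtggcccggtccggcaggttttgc
Cldn5 (chr16:18776597-18776846, plus strand): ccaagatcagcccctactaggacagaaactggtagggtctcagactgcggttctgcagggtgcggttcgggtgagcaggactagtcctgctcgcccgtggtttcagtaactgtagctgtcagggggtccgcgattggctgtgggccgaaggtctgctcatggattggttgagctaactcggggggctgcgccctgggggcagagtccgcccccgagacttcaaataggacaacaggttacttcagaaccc
Kdr (chr5:75978456-75978705, minus strand): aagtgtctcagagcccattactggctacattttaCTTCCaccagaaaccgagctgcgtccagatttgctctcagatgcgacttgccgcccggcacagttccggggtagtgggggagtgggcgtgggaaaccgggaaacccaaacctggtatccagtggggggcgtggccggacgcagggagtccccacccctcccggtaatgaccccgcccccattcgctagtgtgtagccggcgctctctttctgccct
Flt1 (chr5:147726012-147726261, minus strand): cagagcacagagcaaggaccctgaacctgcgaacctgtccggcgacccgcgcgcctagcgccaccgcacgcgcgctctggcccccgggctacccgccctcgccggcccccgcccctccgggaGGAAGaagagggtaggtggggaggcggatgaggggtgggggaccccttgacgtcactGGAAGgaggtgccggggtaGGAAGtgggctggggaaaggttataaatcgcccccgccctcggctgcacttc

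On either strand, GGAAG occurred 3 times in the Flt1 window, 1 time each in the Tjp1 and Kdr windows and 0 times in the Cldn5 window. The letters ACAAT (SOX) and CTTTGA (TCF/LEF) were in none of these 4 windows. Over the 32 windows of the 24 genes with an entry, 75% held GGAAG, 21.9% held ACAAT and 12.5% held CTTTGA on either strand. Among all 32851 windows of the table the shares were 64.1%, 27.7% and 13.8%. The longer ETS letters CCGGAAG, which contain GGAAG, were in 0 of the 32 windows and in 6.91% of all windows. These matches describe letters in a window and carry no test.

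The first comparison sets KO against WT fetal brain at day 15, where genotype and batch cannot be told apart. Most of the endothelial and barrier genes were lower in KO brain. Of the 39 members tested by edgeR's quasi-likelihood test, 30 fell, 3 rose and 6 did not pass an adjusted p of 0.05. The background is wide: 62.6% of all 19147 tested genes passed, 32.5% lower and 30.1% higher. The counts by class given below are read against the same shares. The median log2 fold change of the tested members was -1.32, against 0.03 for all tested genes. The largest falls were those of Cdh5 (-3.07), Vwf (-2.52) and Slc7a5 (-2.52), and the 3 rises, of Abcg2, Egfl7 and Slco1c1, were at most 0.44. Normalised CPM was lower in every KO than in every WT library for 31 members, and higher in every KO library for 3. Among all tested genes 36.3% were lower and 32.1% higher in this way, 68.4% in all. In whole tissue, fewer endothelial cells and less RNA per cell cannot be told apart. Summed over the 41 genes, the level was 1026, 766 and 909 CPM in WT replicates 1 to 3 and 393, 377 and 350 CPM in KO replicates 1 to 3.

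**Figure D1:**
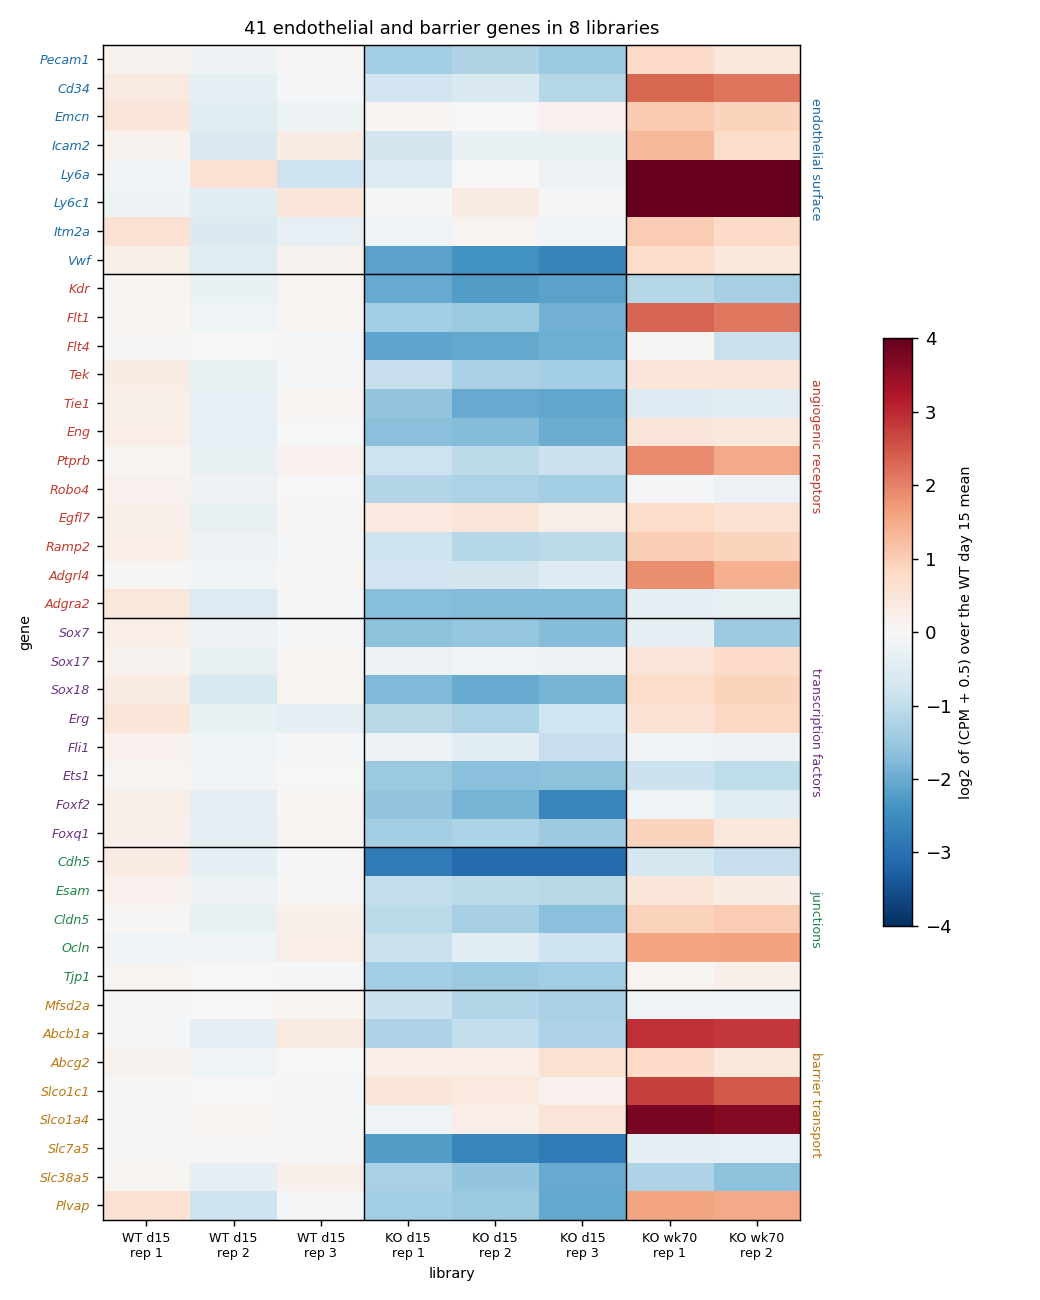
Level of each of the 41 genes (vertical axis, coloured by class) in each of the 8 libraries (horizontal axis), as the log2 ratio of CPM + 0.5 to the WT day 15 mean + 0.5, with the colours ending at 4 in either direction. Most rows are blue in the 3 KO day 15 columns, and Ly6a, Ly6c1 and Slco1a4 are the darkest red at week 70.

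Among the endothelial surface genes 3 of the 6 tested fell (Pecam1, Cd34 and Vwf), 0 rose, and the class median was -0.62. Among all tested genes 62.6% passed in either direction, 32.5% of them lower, so the count alone does not set this class apart. Vwf encodes von Willebrand factor, the clotting protein stored in endothelial granules. It stood at 22.5, 13.4 and 20.9 CPM in WT replicates 1 to 3 and at 3.94, 3.11 and 2.55 CPM in KO replicates 1 to 3. The groups were far apart, with a log2 fold change of -2.52 (SE 0.218, edgeR adjusted p 3.1e-06). Pecam1, the adhesion molecule CD31 found on all endothelium, was at 27.0, 20.96 and 25.3 CPM in WT and at 8.96, 10.3 and 8.34 CPM in KO, again without overlap. Its log2 fold change was -1.37 (SE 0.123, edgeR adjusted p 4.13e-06). Cd34, a sialomucin of the capillary surface, changed less, by -0.78 (edgeR adjusted p 0.00421).

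The other surface genes did not pass the test or were not tested. Emcn, which encodes endomucin, had a log2 fold change of 0.14 and Icam2, an adhesion molecule for white blood cells, one of -0.45 (edgeR adjusted p 0.647 and 0.211). Icam2 passed, at -0.72, without WT replicate 2 (edgeR adjusted p 0.0371). Itm2a, a membrane protein enriched in brain endothelium, was at 66.4, 28.7 and 34.1 CPM in WT and at 38.5, 46.0 and 40.1 CPM in KO. Its difference of -0.01 depended on WT replicate 1: without that library it was 0.42 and passed (edgeR adjusted p 0.00453). Ly6a and Ly6c1, small surface proteins of adult capillaries, were close to absent at day 15. The counts of Ly6a were 10, 22 and 2 (WT) against 4, 10 and 7 (KO). Those of Ly6c1 were 8, 5 and 18 (WT) against 8, 14 and 8 (KO). Neither passed the filter on low counts, and their levels overlapped.

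The angiogenic receptors and signalling genes fell together: 11 of 12 were lower in KO, and the class median was -1.47. Kdr, the main signalling receptor for VEGF, was at 64.3, 48.6 and 64.3 CPM in WT and at 14.2, 12.2 and 12.9 CPM in KO. Every KO library was below every WT library, and the log2 fold change was -2.13 (SE 0.115, edgeR adjusted p 1.19e-07). Flt4, the receptor for VEGF-C that is also known from lymphatic vessels, was at 8.27, 7.89 and 7.59 CPM in WT and at 1.45, 1.56 and 1.68 CPM in KO. The WT values were tight and the fall of 2.29 on the log2 scale was the largest of the class (SE 0.171, edgeR adjusted p 1.03e-06). Flt1, the receptor that binds VEGF with high affinity and limits its action, fell by 1.59. The angiopoietin receptor Tek and its orphan partner Tie1 fell by 1.19 and 1.90, and the TGF-beta co-receptor Eng fell by 1.81. Ptprb, the phosphatase that restrains Tek, fell by 0.90.

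Of the remaining receptors, Robo4 fell by 1.34, the adrenomedullin co-receptor Ramp2 by 1.01, the adhesion receptor Adgrl4 by 0.67, and the Wnt7 co-activator Adgra2 by 1.74. Adgra2 is also known from pericytes. Egfl7, a secreted endothelial factor and the host gene of a microRNA, was the exception in the class. It was at 21.9, 15.3 and 19.5 CPM in WT and at 24.8, 27.4 and 22.2 CPM in KO. The groups were close but did not overlap, and the log2 fold change was 0.43 (SE 0.130, edgeR adjusted p 0.0141). This call was lost without WT replicate 2 (0.29, edgeR adjusted p 0.0538) and without KO replicate 2 (0.34, edgeR adjusted p 0.0849).

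Transcription factors of the endothelial program were lower for 6 of 8 genes, with a class median of -1.59. Ets1, an ETS factor also expressed in other cells, was at 37.2, 31.6 and 33.7 CPM in WT and at 11.9, 10.5 and 10.7 CPM in KO. It fell by 1.59 on the log2 scale (SE 0.0947, edgeR adjusted p 2.17e-07). Erg, the ETS factor most restricted to endothelium in the brain, fell by 1.13, whereas Fli1, which blood cells also use, had a change of -0.49 that did not pass (edgeR adjusted p 0.0575). Without KO replicate 1 Fli1 was at -0.67 and passed (edgeR adjusted p 0.0293), and without KO replicate 3 it was at -0.30 (edgeR adjusted p 0.188).

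The SOXF genes differed among themselves. Sox7 was at 8.69, 6.04 and 6.78 CPM in WT and at 1.94, 2.11 and 1.80 CPM in KO, a fall of 1.83 (SE 0.196, edgeR adjusted p 1.49e-05). Sox18 fell by 2.06. Sox17, the factor of arterial endothelium, was at 7.21 ± 1.23 CPM in WT and 6.21 ± 0.205 CPM in KO (SD, n = 3 each), with overlap and a log2 fold change of -0.17 (edgeR adjusted p 0.363). No test compared the SOXF genes with each other. The forkhead factors Foxf2, which is also expressed in brain pericytes, and Foxq1, enriched in brain endothelium, fell by 2.14 and 1.59.

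All 5 junction genes fell. Cdh5 encodes VE-cadherin, the adhesion protein of the endothelial adherens junction, and it had the largest change of all members. It was at 55.5, 33.4 and 42.1 CPM in WT and at 5.69, 4.72 and 4.75 CPM in KO, which is 8.64-fold lower in the mean. The log2 fold change was -3.07 (SE 0.180, edgeR adjusted p 1.96e-07), and it lay between -3.24 and -2.88 when single libraries were left out. Tjp1, the scaffold protein ZO-1, which many other cells of the fetal brain also express, was at 122, 112 and 108 CPM in WT and at 44.4, 40.8 and 43.0 CPM in KO. Replicates agreed closely, and the fall of 1.37 had the smallest error of all members (SE 0.0636, edgeR adjusted p 4.89e-08). Cldn5, whose promoter is printed above, was at 44.3, 34.8 and 49.1 CPM in WT and at 20.2, 16.8 and 13.1 CPM in KO, a fall of 1.32 (SE 0.155, edgeR adjusted p 3.18e-05). Esam and Ocln fell by 1.05 and 0.76.

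The barrier transport genes went both ways: 5 fell, 2 rose and 1 did not pass. Slc7a5 encodes the light chain of the large neutral amino acid transporter, which neural progenitors also use. It was at 125, 116 and 125 CPM in WT and at 25.7, 19.7 and 16.9 CPM in KO. This fall of 2.52 (SE 0.117, edgeR adjusted p 4.89e-08) was shared by Slc3a2, the gene of its heavy chain, with a smaller change of -1.07. Mfsd2a, the lysophospholipid transporter that restrains vesicular transport, was at 22.5, 23.3 and 24.9 CPM in WT and at 12.8, 10.2 and 9.38 CPM in KO. It fell by 1.09 (SE 0.120, edgeR adjusted p 1.92e-05). Plvap, the diaphragm protein of fenestrated and immature vessels, fell by 1.88, with a wide WT range of 2.84 to 8.32 CPM. The glutamine transporter Slc38a5 fell by 1.66. The efflux pump Abcb1a (P-glycoprotein) was at 6.36, 4.94 and 8.64 CPM in WT and at 2.54, 3.11 and 2.55 CPM in KO, a fall of 1.24 (SE 0.227, edgeR adjusted p 0.000772). Abcb1a has a close paralog, so its counts are uncertain where reads match both.

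The rises were small. Abcg2, the other main efflux pump, was at 19.6, 15.8 and 18.1 CPM in WT and at 21.7, 21.6 and 27.3 CPM in KO, a log2 fold change of 0.44 (SE 0.120, edgeR adjusted p 0.00826). Slco1c1, the thyroxine transporter, was at 14.4, 14.03 and 13.2 CPM in WT and at 19.7, 18.4 and 15.8 CPM in KO, a log2 fold change of 0.41 (SE 0.106, edgeR adjusted p 0.00624). Neither pair of groups overlapped, though both calls were lost with the correction for transcript length and GC content given below. The organic anion carrier Slco1a4, which has close paralogs, had a change of 0.30 that did not pass (edgeR adjusted p 0.245).

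**Figure D2:**
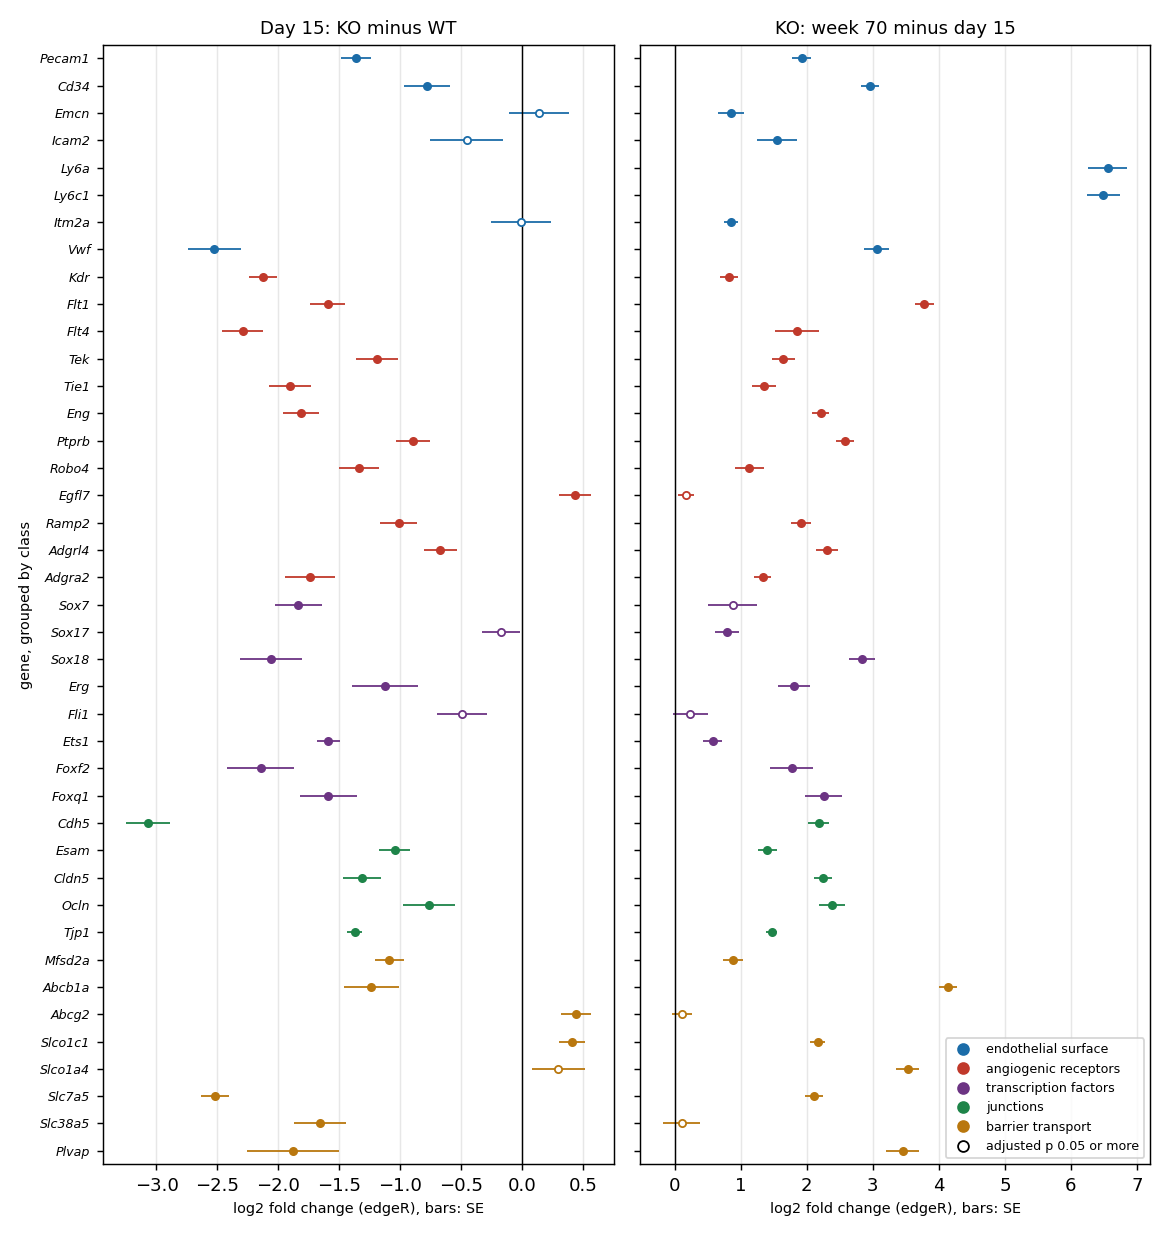
Log2 fold change (horizontal axes, edgeR, bars show the SE) of each gene (vertical axis, coloured by class) between KO and WT at day 15 on the left and between week 70 and day 15 KO on the right; open points did not pass an adjusted p of 0.05. On the left most points lie left of 0 with Cdh5 at -3.07, and on the right every point lies right of 0, from 0.11 to 6.56.

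The difference between the genotypes moved with the GC content of the transcripts, which were taken as the longest coding transcript of each gene. Over the 39 tested members, which share the libraries, Spearman's rho between GC content and the log2 fold change was -0.56, and that with length was -0.30. The 8 members under 45% GC had a median change of 0.06, those from 45 to 55% one of -1.29 (18 tested), and the 13 at 55% or more one of -1.88. The first group holds Abcg2 (39.2% GC), Slco1a4, Emcn, Itm2a, Slco1c1 and Fli1, and also Ocln (42.0% GC) and Adgrl4 (42.2% GC), which fell by 0.76 and 0.67. Egfl7, with 58.5% GC, belongs to the last. When each library's dependence on length and GC, fitted over all genes, was used as an offset in the test, 32 of 39 members were lower, 1 was higher and 6 did not pass, where 24.5% of all 19050 genes were lower and 25.8% higher. All 30 falls were also called in the corrected fit, and the median of the members was -0.95. Among the members a trend with GC content remained after it, with a rho of -0.33. By age the rho over 41 members was 0.05 before the correction and -0.37 after it, so that corrected values by age carry a GC trend that the uncorrected ones do not show. Of the rises at day 15 only Egfl7 (0.65) was called in the corrected fit. Abcg2 was at 0.13 and Slco1c1 at 0.07 (edgeR adjusted p 0.294 and 0.619), Itm2a (-0.80) and Fli1 (-0.67) were called lower, and Cdh5 stayed the lowest at -2.59.

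**Figure D3:**
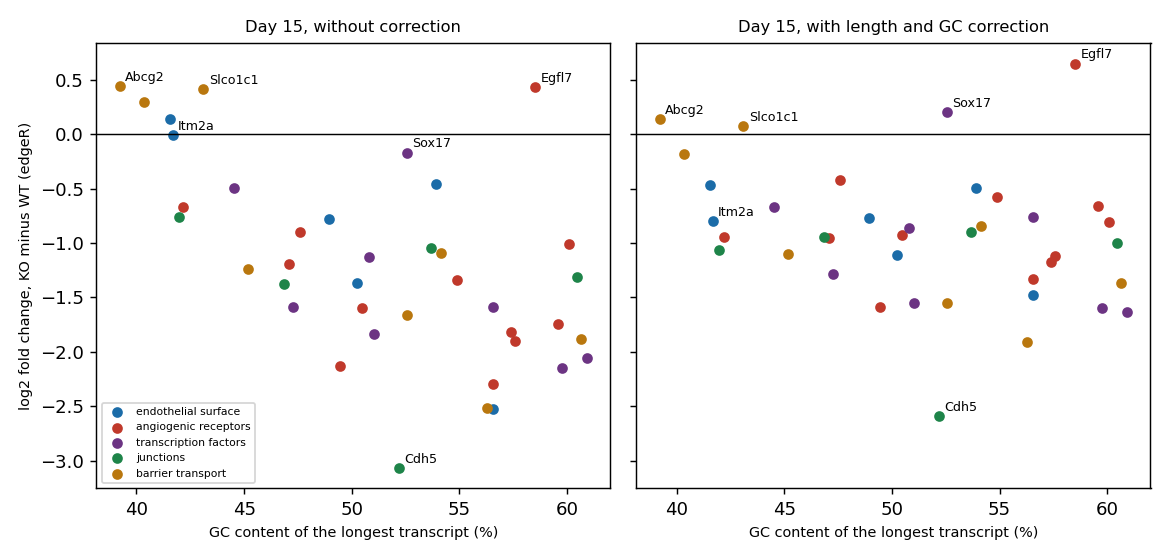
Log2 fold change between KO and WT at day 15 (vertical axis) against GC content in percent (horizontal axis) for the 39 tested genes, coloured by class, without correction on the left and with the length and GC correction on the right. Slco1c1 and Abcg2 lie near 0 after correction (0.07 and 0.13), while Cdh5 remains at -2.59 and Egfl7 at 0.65.

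Markers of other cell types also differed between the genotypes. Their counts are read against all tested genes, of which 62.6% passed, 32.5% lower and 30.1% higher. Of 9 tested pericyte and smooth muscle genes 7 were lower in KO and 1, Rgs5, was higher, and their sum was 260 to 337 CPM in WT and 167 to 177 CPM in KO. Of the 6 fibroblast and meningeal genes 4 were lower, with sums of 306 to 4439 CPM in WT and 67.7 to 141 CPM in KO. Erythroid genes went the other way, with 6 of 7 higher and sums of 957 to 1238 CPM in WT and 3565 to 4377 CPM in KO. Of the neuronal markers 4 of 7 were lower and 2 higher (5344 to 5917 and 4471 to 4556 CPM), and of the astrocyte and progenitor markers 7 of 8 were lower and 1 higher (779 to 812 and 293 to 325 CPM). Blood and microglial markers showed 3 lower and 2 higher of 7 tested (55.4 to 72.6 and 38.5 to 40.7 CPM), and choroid plexus markers 2 lower of 5 (321 to 420 and 302 to 385 CPM). None of these markers was at 0 counts in a fetal library. Their part in the endothelial differences was not tested. WT replicate 1, the library rich in meningeal genes, was the highest of the WT libraries for 28 of the 41 members and WT replicate 2 the lowest for 34. Without WT replicate 1, 30 members were called lower. The other WT libraries, at 306 and 517 CPM, also held more of the fibroblast and meningeal genes than any KO library. Leaving out replicate 1 therefore does not remove the difference in these genes.

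Age was compared within the knockout, 2 libraries at week 70 against 3 at day 15, where age and batch cannot be told apart. These KO day 15 libraries also serve in the comparison of genotypes, so that the same values bear on both and a low level there raises the one change as it lowers the other. Between the ages 36 of 41 members rose, 0 fell and 5 did not pass, with a media log2 fold change of 1.86. The background is again wide, since 82% of 20000 tested genes passed, 37.6% higher and 44.4% lower at week 70, with a median of -0.19. The counts by class given below are read against these shares. Among members no fall was found at an unadjusted p under 0.05 either, by edgeR or DESeq2 (0 each). DESeq2 called 36 members higher, where it called 62.8% of all genes in either direction. Levels were higher in both week 70 libraries than in every KO day 15 library for 39 members, which 42.3% of all tested genes showed, while 87.9% did not overlap in either direction. With the length and GC correction described above 34 members rose and 0 fell, against 39.7% of all genes higher and 78.7% called. The largest rises were those of Ly6a (6.56), Ly6c1 (6.49), Abcb1a (4.14), Flt1 (3.78) and Slco1a4 (3.53). Summed over the 41 genes the level was 1588 and 1417 CPM in week 70 replicates 1 and 2, above every fetal library. Without the TMM scaling the gap to WT was smaller. The 41 genes took 0.119 and 0.109% of counts at week 70, 0.0778 to 0.105% in WT day 15 and 0.0412 to 0.0460% in KO day 15.

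All 8 endothelial surface genes rose, with a median of 2.45. Ly6c1 was at 0.485, 0.778 and 0.463 CPM in the KO day 15 libraries and at 67.3 and 45.6 CPM at week 70. The fetal values rest on 8 to 14 counts and those at week 70 on 1021 and 662 counts, so that the log2 fold change of 6.49 (SE 0.247, edgeR adjusted p 2.57e-09) joins near-absence to a high level. Ly6a was at 0.242, 0.556 and 0.405 CPM at day 15 and at 51.2 and 32.1 CPM at week 70, a log2 fold change of 6.56 (SE 0.297, edgeR adjusted p 9.05e-09). Both genes belong to a family of near-identical copies, and reads that match several of them are uncertain. Vwf and Cd34 rose by 3.06 and 2.96, Pecam1 by 1.93, Icam2 by 1.55, and Emcn and Itm2a by 0.85 each.

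Angiogenic receptors rose for 11 of 12 genes, but to very different degrees. Flt1 was at 8.78, 8.06 and 5.91 CPM at day 15 and at 121 and 102 CPM at week 70, a log2 fold change of 3.78 (SE 0.144, edgeR adjusted p 2.68e-09). Ptprb was at 10.8, 9.22 and 10.5 CPM at day 15 and at 73.4 and 56.9 CPM at week 70, a change of 2.58 (SE 0.133, edgeR adjusted p 2.4e-08). Kdr stood at 26.5 and 23.3 CPM at week 70 and rose by only 0.82 (edgeR adjusted p 0.000192). Adgrl4, Eng and Ramp2 rose by 2.31, 2.21 and 1.91, Flt4, Tek and Tie1 by 1.86, 1.65 and 1.35, and Adgra2 and Robo4 by 1.33 and 1.13. Egfl7 did not pass, at 0.17 (edgeR adjusted p 0.218). With the length and GC correction Tie1, Robo4 and Adgra2 no longer passed, at 0.39, 0.32 and 0.14 (edgeR adjusted p 0.0524, 0.189 and 0.324). Flt4 was at 0.93 with the correction and lost its call with the correction and the replicate number as a block (0.94, edgeR adjusted p 0.0888).

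Of the transcription factors 6 of 8 rose, with a median of 1.33, where 82% of all tested genes passed in either direction and 37.6% rose. Sox18 was at 2.36, 1.94 and 2.20 CPM at day 15 and at 15.7 and 17.6 CPM at week 70, a log2 fold change of 2.84 (SE 0.195, edgeR adjusted p 2.29e-07). Foxq1 was at 1.39, 1.50 and 1.27 CPM at day 15 and at 8.37 and 5.93 CPM at week 70, a change of 2.26 (SE 0.276, edgeR adjusted p 2.39e-05). Erg and Foxf2 rose by 1.81 and 1.77, Sox17 by 0.79 and Ets1 by 0.58, and the Sox17 call was lost with the correction (0.37, edgeR adjusted p 0.062). Ets1 lost its call with upper-quartile scaling (0.33, edgeR adjusted p 0.0574). With the correction and the block together, the calls of Ets1 (0.45, edgeR adjusted p 0.0516) and Foxf2 (0.74, edgeR adjusted p 0.068) were lost. Fli1 did not pass, at 0.24 (edgeR adjusted p 0.419). Sox7 was at 5.41 and 2.27 CPM in the week 70 libraries, a change of 0.88 that missed the threshold (edgeR adjusted p 0.0503) and depended on the library: it was 1.37 without week 70 replicate 2 (edgeR adjusted p 0.00081) and 0.13 without week 70 replicate 1 (edgeR adjusted p 0.74).

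All 5 junction genes rose by age. Cldn5 was at 82.1 and 87.7 CPM at week 70, above the 13.1 to 20.2 CPM of KO day 15, with a log2 fold change of 2.25 (SE 0.144, edgeR adjusted p 1.29e-07). Tjp1 was at 123 and 131 CPM at week 70, with a change of 1.47 (SE 0.0840, edgeR adjusted p 5.23e-08). Both week 70 libraries were close to each other for these genes. Ocln rose by 2.39, Cdh5 by 2.18 and Esam by 1.40.

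Of the barrier transporters 6 of 8 rose by age, and the changes of the class ranged from 0.11 to 4.14. Here too 82% of all tested genes passed in either direction and 37.6% rose. Abcb1a was at 2.54, 3.11 and 2.55 CPM at day 15 and at 53.6 and 50.2 CPM at week 70, a log2 fold change of 4.14 (SE 0.139, edgeR adjusted p 1.09e-09). Slco1a4 was at 3.33, 4.61 and 5.62 CPM at day 15 and at 58.9 and 53.7 CPM at week 70, a change of 3.53 (SE 0.173, edgeR adjusted p 1.58e-08). Slco1c1 and Slc7a5 rose by 2.17 and 2.11, and Mfsd2a by 0.89. Abcg2 and Slc38a5 did not pass, with changes of 0.11 each (edgeR adjusted p 0.503 and 0.735), although Abcg2 was called higher with the correction (0.98, edgeR adjusted p 0.000117). Plvap, the fenestral protein that mature barrier vessels lack, rose by 3.45 to 17.2 and 16.5 CPM. The same libraries held 71.9 and 2379 CPM of choroid plexus markers, whose part in the Plvap level was not tested.

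Markers of other cell types changed with age as well, as did 82% of all tested genes, 37.6% higher and 44.4% lower. Several of the marker lists did not exceed that share. Of the pericyte and smooth muscle genes tested 5 of 9 rose and 2 fell (293 and 329 CPM at week 70), of the fibroblast and meningeal genes 2 rose and 2 fell (121 and 141 CPM), and all 8 blood and microglial genes rose (514 and 429 CPM). Erythroid genes fell for 7 of 7 (491 and 778 CPM). Choroid plexus genes were called higher for 3 of 5, but their sum was 71.9 CPM in week 70 replicate 1, below every KO day 15 library (302 to 385 CPM), and 2379 CPM in replicate 2. Neuronal markers showed 4 rises and 3 falls of 7, and astrocyte and progenitor markers 5 rises and 3 falls of 8. Their part in the endothelial changes was not tested.

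**Figure D4:**
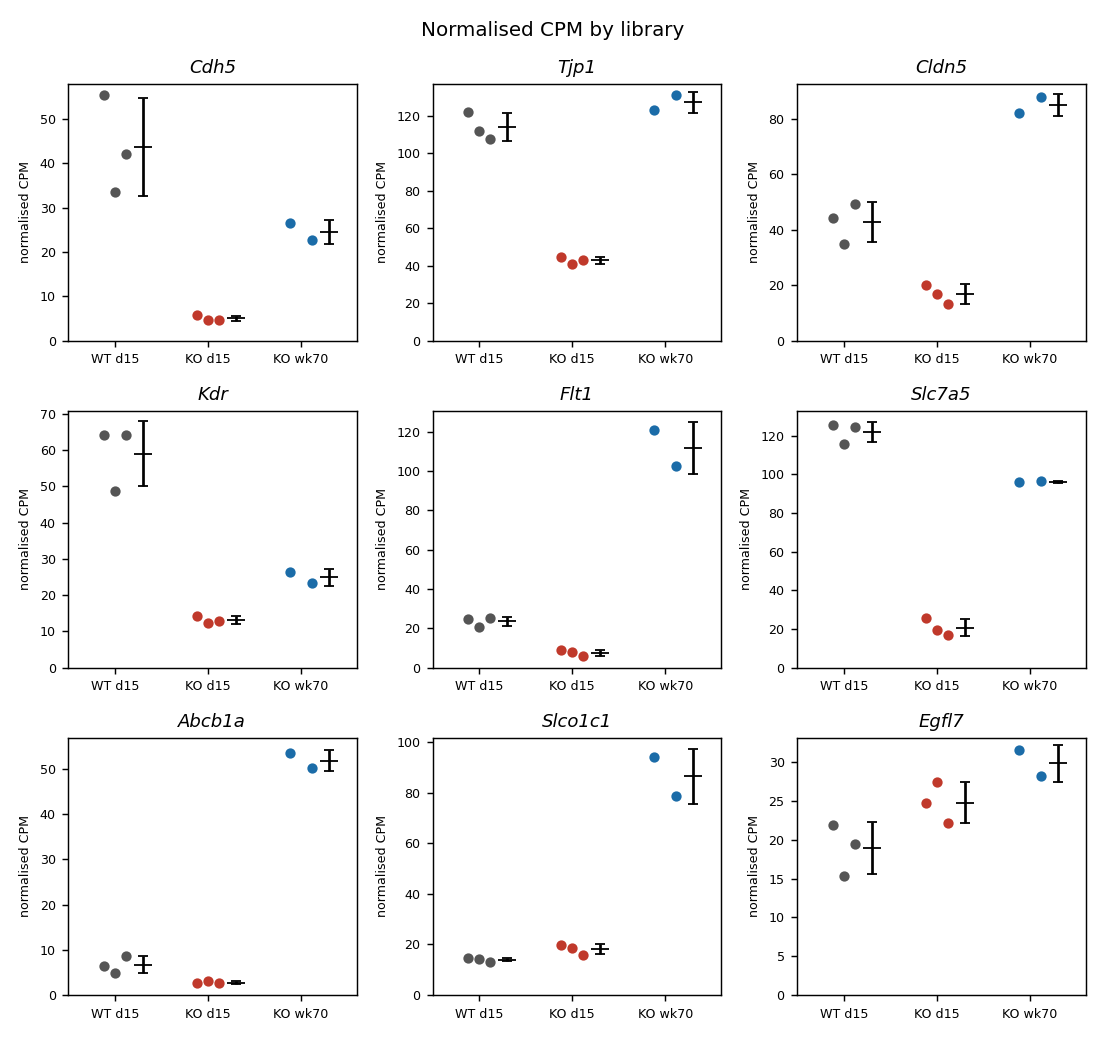
Normalised CPM (vertical axis, linear from 0) of 9 genes in each library of the 3 groups (horizontal axis); points are libraries, and the bar beside them is the mean with 1 SD. At week 70 Cdh5, Kdr and Slc7a5 lie under every WT day 15 library, and Tjp1, Cldn5, Flt1, Abcb1a, Slco1c1 and Egfl7 lie above every one. The places of Tjp1 and Egfl7 rest on the TMM scaling.

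Set beside WT day 15, the week 70 KO libraries were above every WT library for 28 members, below every WT library for 8 and overlapped for 5. These levels differ in both genotype and age and were not tested. They also depend on the TMM factors, which were 0.751 and 0.767 at week 70 and 1.02 to 1.03 in WT day 15. Tjp1, for example, had 1870 and 1901 counts at week 70 and 2618, 2245 and 2140 in WT, at similar total counts. Its place above WT therefore rests on the scaling. By share of total counts alone, Pecam1, Itm2a, Vwf, Tek, Eng, Egfl7, Sox17, Sox18, Erg, Foxq1, Esam and Abcg2 would overlap WT. Tjp1, Flt4, Robo4, Adgra2, Fli1 and Foxf2 would lie below every WT library, and the other members would keep their places. With the scaling, the 8 below were Kdr, Tie1, Sox7, Ets1, Cdh5, Mfsd2a, Slc7a5 and Slc38a5. Slc38a5 was 2.82-fold lower at week 70 than in WT day 15 in the mean, and Kdr was 2.37-fold lower. The fetal fall and the rise with age were both called for 28 members, which the shared KO day 15 libraries tie together. Only Slco1c1 was called higher in both comparisons.

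Compared per kilobase of transcript, the order of levels differed between the groups. In WT day 15 Slc7a5 (34.7 CPM per kb) and Cldn5 (30.2) were the most abundant, followed by Itm2a (24.7) and Tjp1 (16.2). In KO day 15 Itm2a (23.8) and Egfl7 (17.8) led, ahead of Cldn5 (11.8). At week 70 Ly6c1 (66.9 CPM per kb) and Cldn5 (60.0) led, then Itm2a (46.2), Cd34 (43.8) and Ly6a (43.6). Within WT day 15 Slc7a5 and Cldn5 were not far apart against the Cldn5 spread of 42.7 ± 7.28 CPM (SD, n = 3), and Ly6c1 and Cldn5 at week 70 cannot be ordered, given 67.3 and 45.6 CPM of Ly6c1 in the 2 libraries.

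Ratios of counts within a library need no scaling between libraries. They still carry each library's dependence on transcript length and GC content, for which they were not corrected. The pairs were chosen after the values were seen and are given without a test. Flt1 over Kdr, the balance of the VEGF receptors, was 0.388, 0.426 and 0.389 in the WT libraries, then 0.617, 0.659 and 0.457 in the fetal KO libraries, and 4.56 and 4.39 in the week 70 libraries. The 3 groups do not overlap, and the step to week 70 was the larger. Cdh5 over Pecam1 was 2.06, 1.60 and 1.66 in the WT libraries, then 0.635, 0.459 and 0.569 in the fetal KO libraries, and 0.637 and 0.674 in the week 70 libraries. Both KO groups lay under the WT libraries and close to each other in this ratio. Cldn5 over Pecam1, in contrast, overlapped between the genotypes, at 1.64, 1.66 and 1.94 in WT and 2.25, 1.64 and 1.57 in KO day 15. The ratio of the efflux pumps, Abcg2 over Abcb1a, was 3.08, 3.19 and 2.09 in the WT libraries, then 8.55, 6.93 and 10.7 in the fetal KO libraries, and 0.566 and 0.481 in the week 70 libraries.

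Other genes of the pathway were taken from 4 lists of 64 genes in all, of which 46 fell, 6 rose and 12 did not pass between the genotypes at day 15, with a median of -0.82. By age 34 rose, 14 fell and 16 did not pass, with a median of 0.47. Both, and the counts by list that follow, are read against the backgrounds given above. These were 32.5% lower and 30.1% higher at day 15, and 37.6% higher and 44.4% lower by age. With the length and GC correction 38 fell, 5 rose and 21 did not pass at day 15, with a median of -0.46. By age 31 then rose, 22 fell and 11 did not pass, with a median of 0.43. The corrected backgrounds were 24.5% lower at day 15 and 39.7% higher by age.

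In the list of angiogenic ligands, co-receptors and Notch genes, 17 of 23 were lower at day 15 and 2 higher. The strongest calls were Notch1 and Nrp2, genes that neural cells also express at high levels. Notch1 went from 167 ± 4.05 to 35.3 ± 3.79 CPM and Nrp2 from 213 ± 3.91 to 71.3 ± 3.11 CPM (SD, n = 3 each), with log2 fold changes of -2.20 and -1.54 (edgeR adjusted p 1.59e-08 and 1.99e-08). The 2 higher genes were the ligands Vegfa (0.35) and Angpt1 (0.98), whose receptors Kdr and Tek fell. Angpt1 missed the threshold with the correction (0.50, edgeR adjusted p 0.0713), and Vegfa kept its call (0.64). By age 8 of the 23 rose and 8 fell, with a median of -0.07. With the correction 8 rose and 13 fell, and the median was -0.76. The sphingosine receptor S1pr1, which astrocytes also express, rose by 4.24 and the peptide ligand Apln by 4.71 (edgeR adjusted p 3.57e-10 and 2.22e-09). Aplnr, the receptor of Apln on growing vessels, chosen after its values were seen, was at 29.7 ± 7.32 CPM in WT day 15 and 5.55 ± 0.210 CPM in KO day 15 (SD, n = 3 each). It was at 0.264 and 0.620 CPM at week 70, on 4 and 9 counts, and was called lower in both comparisons (-2.38 and -3.74).

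Of the 12 genes of Wnt barrier induction 10 were lower at day 15 and 1, Tspan12, was higher. Apcdd1, a Wnt target enriched in barrier endothelium, went from 132 ± 8.002 to 31.5 ± 4.89 CPM (SD, n = 3 each), and Wnt7b, a ligand from neural cells, from 117 ± 7.06 to 41.4 ± 1.99 CPM. Their log2 fold changes were -2.02 and -1.46 (edgeR adjusted p 5.32e-08 and 3.96e-08). With the correction 7 of the 12 were lower and 0 higher, and Tspan12 turned from 0.27 to -0.44. By age 6 rose and 2 fell, with a median of 0.27. With the correction 4 rose and 5 fell, and the median was -0.18. The Norrin receptor Fzd4 rose by 1.96 and the co-receptor Lrp6 fell by 0.68 (edgeR adjusted p 1.63e-06 and 4.85e-05).

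Among 15 further barrier genes 11 were lower at day 15 and 1 higher, and with the correction 10 were lower and 2 higher. Slc2a1, the glucose transporter GLUT1, was at 69.2, 65.2 and 71.7 CPM in WT and at 18.7, 16.4 and 15.2 CPM in KO, a fall of 2.00 (edgeR adjusted p 2.75e-08). The cationic amino acid transporter Slc7a1 also fell by 2.00 (edgeR adjusted p 2.1e-08). Without the correction the higher gene was Tfrc, the transferrin receptor, which red cell precursors also carry, with a change of 0.73. By age 12 of the 15 rose and 2 fell. Slc2a1 rose by 2.87 to 138 and 124 CPM, and the monocarboxylate transporter Slc16a1 rose by 2.18 (edgeR adjusted p 1.97e-09 and 1.06e-08).

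Of 14 further endothelial genes 8 were lower at day 15 and 2, Ecscr and Nostrin, were higher. With the correction 7 were lower and 1 higher, and the median went from -0.83 to -0.33. Cd93 and its matrix ligand Mmrn2 fell by 2.21 and 2.50 (edgeR adjusted p 1.98e-07 and 1.02e-06), and the rises of Ecscr (0.66) and Nostrin (0.85) did not pass with the correction. By age 8 rose and 2 fell. The adhesion receptor Adgrf5 rose by 2.22 and the junction protein Cgnl1 by 2.46 (edgeR adjusted p 3.93e-08 and 5.31e-07).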

How the data were processed

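Gene expression was measured by RNA-seq in 8 whole-brain libraries. The authors deposited raw read counts per Ensembl gene in 1 table, per the file headers, with 34299 genes. Per the submitters' processing notes, the tools included FastQC, cutadapt, Trimmomatic, HISAT2, featureCounts and edgeR, and GRCm38 and GRCm39 are both named; the annotation, the strand setting and how multiply matching reads were counted are not given in the sources used here, so overlapping genes and close paralogs are uncertain. Groups and columns follow the sample titles.

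Tests used edgeR 4.0.16 under R 4.3.3 (filterByExpr, TMM, two-sided quasi-likelihood F-test), with Benjamini-Hochberg adjustment over all tested genes at 0.05. The fetal fit used 6 libraries and the age fit 5. SE is the log2 fold change over the root of F. CPM was scaled over all 8 libraries, so ratios of CPM differ slightly from fitted changes. A count of 0 allows up to 3 counts, 0.140 to 0.207 CPM by library (counting error only). Transcript length and GC content came from GENCODE M 21 (GRCm38), which matched 97.3% of identifiers; the correction smoothed each library's deviation on both with mgcv 1.9.3 and used it as an offset. Promoters came from RefSeq.

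The members and lists were chosen with earlier results of these data known. Every member could be named. Values per library were given for the 2 members of each class with the smallest adjusted p in each comparison, members called against their class and untested members, and for the 2 strongest genes of each pathway list; others were chosen after their values were seen. Alternatives were DESeq2 1.42.0, scaling by RLE or upper quartile, testing without a filter or only from a mean of 10 counts, a joint fit of all 8 libraries, the replicate number as a block, the length and GC correction with and without the block, and each library left out. The scripts were tested on simulated data with 200 changed genes. In the fetal comparison edgeR recovered 71% of these genes, and 11.8% of its calls were false. In the age comparison edgeR recovered 65.5%, and 10.9% of its calls were false. DESeq2 recovered 70.5% (fetal) and 67% (age), and 13% and 14.1% of its calls were false. These shares of false calls lie above the adjusted p threshold used for the calls. The 200 genes were changed equally up and down, among 18810 (fetal) and 19093 (age) genes tested by edgeR. In the data 62.6% and 82% of tested genes were called, a setting that was not simulated. Whether the shares hold there was not tested.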

Additional observations from a re-analysis of the deposited data

How the results depend on the processing

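Of the 39 members tested at day 15, 30 kept direction and call under all alternatives run, and of the 41 tested by age, 29 did. The count of members called stayed at 33 or 34 at day 15 under every alternative with all libraries and at 32 to 34 with single libraries left out. By age it was 30 to 37, lowest with the length and GC correction and the replicate block together. With the correction, with and without the block, 1 member was called higher at day 15 in place of 3.

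Class medians moved by more than the spread between replicates mainly with the correction and with upper-quartile scaling. At day 15 the correction gave -0.94 for angiogenic receptors, -1.08 for transcription factors, -1.00 for junctions and -0.98 for barrier transport. With the block as well it gave -0.94, -1.06, -1.00 and -0.96. By age it gave 2.14 for surface genes, 1.16 for receptors, 0.82 for transcription factors and 1.68 for junctions, and with the block 2.05, 1.14, 0.60 and 1.62, with 1.89 for barrier transport. Upper-quartile scaling, which moved the median of all genes from 0.03 to 0.20 at day 15 and from -0.19 to -0.44 by age, gave -1.15 for junctions and -0.99 for barrier transport at day 15. By age it gave 2.20 for surface genes, 1.50 for receptors, 1.08 for transcription factors, 1.93 for junctions and 1.89 for barrier transport. For transcription factors by age, all 8 libraries in one fit gave 1.42 and the replicate block 1.13. With single libraries left out, the age medians ranged from 1.53 to 1.81 for receptors, 1.16 to 1.52 for transcription factors and 2.07 to 2.27 for junctions.

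Signs turned only for members with small changes. At day 15 the correction, without and with the block, turned Emcn to -0.47 and -0.41, Sox17 to 0.20 and 0.21, and Slco1a4 to -0.19 and -0.20. Itm2a turned to 0.16 with upper-quartile scaling, 0.0016 with the filter at a mean of 10 counts, 0.0732 with the block, and ranged from -0.2398 to 0.4216 with single libraries left out. Emcn then ranged from -0.0663 to 0.4689. By age, upper-quartile scaling turned Egfl7 to -0.0798, Fli1 to -0.0104, Abcg2 to -0.14 and Slc38a5 to -0.14. The correction, without and with the block, turned Egfl7 to -0.19 and -0.23 and Slc38a5 to -0.0277 and -0.20. Slc38a5 was at -0.0831 with the block. With single libraries left out it ranged from -0.1232 to 0.3163, and Abcg2 from -0.0524 to 0.2674. The cause of these turns was not tested.

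Replicate numbers did not pair the libraries: same-numbered WT and KO day 15 libraries had deviations from their group means that correlated at -0.144, -0.169 and -0.146. The replicate block left 33 members called at day 15 and 36 by age, and 11184 and 14876 of all genes. Where 1 library remained at week 70, it was assumed to vary like the other group.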
